A study of Mus musculus with 86 samples.

Results

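The immediate early genes described here are 10 genes that neurons switch on within minutes of activity, namely Fos, Fosb, Junb, Egr1, Egr2, Egr4, Arc, Npas4, Nr4a1 and Dusp1. They were chosen by name, and all 10 of 10 were found among the 35275 genes of the deposited count table. The RNA came from punches of the prefrontal cortex, the hypothalamus and the hippocampus of 29 free-ranging house mice of one barn population, with 86 libraries in all and 1 library per animal and region. The groups were 7 females and 7 males labelled high for gregariousness, which had large social network sizes, and 7 females and 8 males labelled low, which had small ones, and the hypothalamus of animal 18, a male with a small network, had no library. No group carried a treatment or an introduced allele according to the labels; the mice were caught in winter around sunrise by blocking the nest boxes, passed through a glass jar and killed with CO2. Ages of single animals were not used here. The paper gives estimated mean ages per group, lowest in males with small networks and highest in females with small networks. It reports no significant difference in age by sex or network size, and age was not modelled here. The comparisons ask how strongly these genes were expressed in each region, whether an animal that was high in one region was high in the others, and whether levels differed with network size and sex.

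When a neuron is strongly active, calcium entry and kinase cascades phosphorylate factors that already sit at these promoters, among them CREB at cAMP response elements (CRE) and SRF with its partners at CArG boxes. Transcription then starts without new protein synthesis, and the messenger RNA decays within hours. The level in a brain depends in part on events of roughly the last hour before death. Capture came before death, and whether it fell within that hour is not known. The boxes were opened one after another, and the time from capture to death of each animal is not given in the sources used here and was not modelled. Fos, Fosb and Junb encode subunits of the AP-1 transcription factor. Egr1, Egr2 and Egr4 are zinc finger transcription factors, Npas4 is a neuron-restricted factor of the bHLH-PAS family, and Nr4a1 is an orphan nuclear receptor. Arc acts at the synapse, where it promotes the removal of AMPA receptors, and Dusp1 is a phosphatase that switches MAP kinases off.

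RefSeq promoter windows of GRCm38.p6 were at hand for 8 of the 10 genes; Arc and Egr1 are named only. In the 250 bases upstream of the start site, each of the 8 genes held at least 1 core of the CRE, spelled TGACG on either strand, against 17.8% of the 32851 windows of all genes. Egr2 has 5 listed starts and was counted if any window held the motif, so that it had more chances than a single window. The full CRE, TGACGTCA, was found in 1 of the 8 genes, Dusp1, from 143 to 136 bases upstream of its start, and in 1.55% of all windows; each full CRE also counts as cores. The CArG box was found within these windows for Egr2 alone among the 8 genes, and in 1.47% of all windows. Sequence outside the windows was not searched for any motif. EGR sites, spelled GCGGGGGCG or GCGTGGGCG on either strand, were found upstream of Fosb and Nr4a1 and in 3.06% of all windows. The AP-1 site TGANTCA was found in 0 of the 8 genes and in 6.75% of all windows. The TATA box, spelled TATAAA, lay 33 to 28 bases upstream of the start of Fos and in 12.4% of all windows. Other spellings of the TATA box were not searched, and the windows of Egr4 and Npas4 hold tatataag near their starts. These are matches of letters and not evidence of binding. The 5 windows printed are those of genes with a single listed start and at most 6 bases in an annotated exon. They are shown because the 10 genes rose and fell together across animals. Whether these motifs have a part in that was not tested. Capitals mark CRE cores and, in Fos, the TATAAA match. The Nr4a1 window lies within an intron of a longer transcript of the same gene.
Fos, chr12:85473640-85473889, plus strand: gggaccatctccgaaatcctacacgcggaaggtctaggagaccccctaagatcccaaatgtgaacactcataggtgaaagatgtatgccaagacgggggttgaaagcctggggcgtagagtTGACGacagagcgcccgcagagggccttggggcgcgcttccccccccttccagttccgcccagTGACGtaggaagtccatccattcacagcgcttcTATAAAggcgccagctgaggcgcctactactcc
Fosb, chr7:19310046-19310295, minus strand: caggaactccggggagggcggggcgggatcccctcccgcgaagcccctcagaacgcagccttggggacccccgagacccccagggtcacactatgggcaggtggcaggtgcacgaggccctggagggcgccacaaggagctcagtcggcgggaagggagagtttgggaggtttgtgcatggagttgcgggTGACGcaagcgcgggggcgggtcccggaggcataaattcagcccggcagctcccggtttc
Junb, chr8:84978749-84978998, minus strand: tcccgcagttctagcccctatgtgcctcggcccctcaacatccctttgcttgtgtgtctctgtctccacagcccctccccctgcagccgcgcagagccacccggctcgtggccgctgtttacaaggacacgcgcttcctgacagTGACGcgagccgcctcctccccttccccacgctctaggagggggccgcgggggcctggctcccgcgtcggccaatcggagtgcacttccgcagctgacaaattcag
Nr4a1, chr15:101266596-101266845, plus strand: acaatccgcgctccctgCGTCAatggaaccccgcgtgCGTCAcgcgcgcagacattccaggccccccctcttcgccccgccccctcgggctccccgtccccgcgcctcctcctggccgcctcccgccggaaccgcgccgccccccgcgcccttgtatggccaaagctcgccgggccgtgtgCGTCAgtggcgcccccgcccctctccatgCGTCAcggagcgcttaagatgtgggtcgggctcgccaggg
Egr4, chr6:85513590-85513839, minus strand: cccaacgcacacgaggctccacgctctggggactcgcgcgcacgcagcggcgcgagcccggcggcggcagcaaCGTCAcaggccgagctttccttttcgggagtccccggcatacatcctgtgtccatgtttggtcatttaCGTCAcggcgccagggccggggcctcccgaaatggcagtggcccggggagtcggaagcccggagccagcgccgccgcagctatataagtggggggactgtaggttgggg
Fos held CRE cores starting 129 and 66 bases upstream, Nr4a1 held 4 between 233 and 36 bases upstream, and Egr4 held 2, at 177 and 109 bases. Fosb and Junb held 1 each, 60 and 106 bases upstream.

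Total counts per library lay between 33711824 and 81865801, and 0 pairs of libraries were identical. The member with the fewest reads, Egr2, had 13 to 173 counts in the hypothalamus libraries and 36 to 869 in the cortex libraries, while Egr1 had 3337 to 20216 counts in the cortex. Markers of the 3 regions followed the labels: the summed level of 4 cortex markers was 424 CPM (read counts scaled to the effective size of the library) or more in each cortex library and 274 CPM or less elsewhere, 4 dentate gyrus markers reached at least 91.0 CPM in each hippocampus library against at most 75.5 CPM elsewhere, and 6 hypothalamus markers reached at least 127 CPM in each hypothalamus library against at most 80.3 CPM elsewhere. Markers of neighbouring tissue varied between punches: 4 thalamus markers summed to 50.3 to 647 CPM in the hypothalamus libraries (median 79.2), 4 striatum markers to 221 to 884 CPM there (median 464) and to 107 to 509 CPM in the cortex libraries. Junb overlaps Prdx2 and Dusp1 overlaps Ergic1 and Gm8225 on the opposite strand; the strand setting of the counting is not given in the sources used here, so reads of such overlaps cannot be assigned to one strand with certainty.

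The AP-1 subunits were led by Junb. Junb (chr8:84974484-84978718, minus strand) had a median of 53.8 CPM in the cortex (range 26.2 to 124), 48.1 CPM in the hippocampus (31.4 to 105) and 28.96 CPM in the hypothalamus (15.3 to 51.0). Fos (chr12:85473890-85477273, plus strand) had medians of 15.7, 12.9 and 16.3 CPM in the cortex, hippocampus and hypothalamus, and was the member without a higher median in the cortex than in the hypothalamus. Its ranges were 2.66 to 53.7 CPM in the cortex, 2.95 to 38.3 CPM in the hippocampus and 3.88 to 50.8 CPM in the hypothalamus, so that the highest animal exceeded the lowest by 20.2-fold, 12.96-fold and 13.1-fold. Fosb (chr7:19302696-19310051, minus strand) varied far less, with medians of 14.2, 9.09 and 7.37 CPM and at most a 3.40-fold range within a region.

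Egr1, on chromosome 18, was the highest member in the cortex also per exon length, with 52.8 CPM per kb of exon and a higher level per kb than 95.2% of the 18301 genes with a length. Its medians were 237 CPM in the cortex (92.4 to 599), 101 CPM in the hippocampus (47.5 to 200) and 66.0 CPM in the hypothalamus (27.8 to 103). Egr4 (chr6:85511121-85513589, minus strand) fell from a median of 36.9 CPM in the cortex to 22.7 CPM in the hippocampus and 9.82 CPM in the hypothalamus. Egr2 (chr10:67535475-67542188, plus strand) was the lowest member, at 4.29, 2.69 and 1.26 CPM, and in the cortex it ranged from 0.765 to 25.7 CPM, 33.7-fold. The plot of levels by library shows these steps and the overlap of the groups within them.

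**Figure D1:**
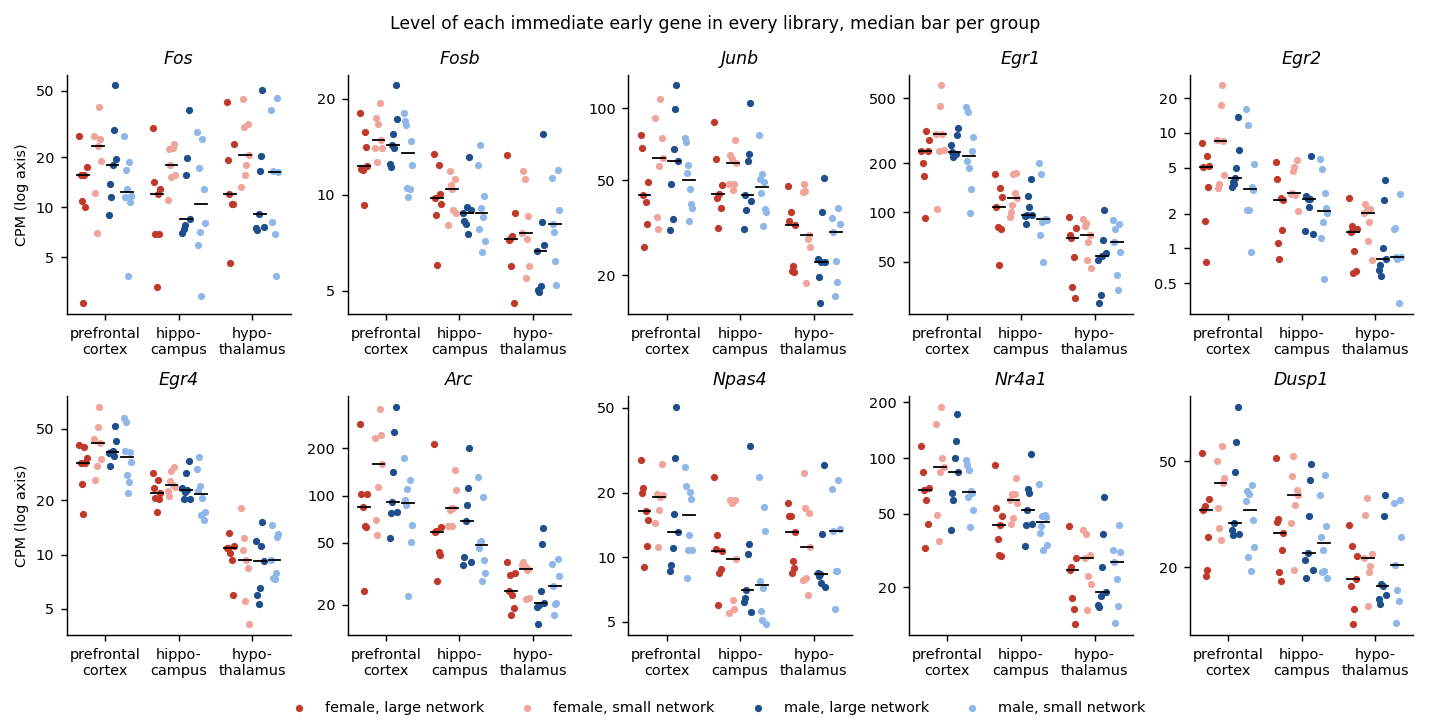
Level of each gene in each library in CPM on log axes, by region and by sex and network size, with a bar at each group's median; each point is 1 animal. Medians in the cortex exceed those in the hypothalamus for all genes but Fos, whose animals spread from 2.66 to 53.7 CPM within the cortex.

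Arc (chr15:74669083-74672570, minus strand) had a median of 92.9 CPM in the cortex (22.9 to 371), 62.6 CPM in the hippocampus (28.3 to 214) and 25.5 CPM in the hypothalamus (14.99 to 62.4). Nr4a1 (chr15:101254269-101274795, plus strand) followed the same order with 69.1, 48.4 and 25.3 CPM, and Dusp1 (chr17:26505590-26562128, minus strand) with 33.5, 28.5 and 19.8 CPM. Npas4 (chr19:4984355-4990316, minus strand) was the exception, with a median of 16.5 CPM in the cortex, 10.4 CPM in the hypothalamus and 8.87 CPM in the hippocampus. Of the 10 genes, 9 had their highest median in the cortex and 8 their lowest in the hypothalamus.

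Between regions, levels were compared with edgeR's quasi-likelihood test with Benjamini-Hochberg adjustment over 19873 genes. In the cortex against the hypothalamus, 9 of the 10 genes were higher in the cortex, where 35.3% of all genes were called higher. The increase was largest for Arc, 4.39-fold (log2 2.13, SE 0.22), Egr2, 4.285-fold (2.099, SE 0.25), Egr1, 4.09-fold (2.03, SE 0.15), and Egr4, 3.74-fold (1.90, SE 0.11), each with an adjusted p of 8.71e-12 or less. Nr4a1 was 3.07-fold higher, Junb 1.93-fold, Fosb 1.81-fold, Dusp1 1.64-fold and Npas4 1.41-fold (adjusted p = 0.0140). Fos did not pass the test, at a log2 fold change of -0.14 (95% interval -0.61 to 0.33).

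In the cortex against the hippocampus, 7 of 10 were higher in the cortex, beside 30.5% of all genes. Egr1 led with 2.29-fold and Egr2 with 2.104-fold, and Fos (log2 0.27, 95% interval -0.20 to 0.74), Dusp1 (0.25, -0.01 to 0.51) and Junb (0.14, -0.13 to 0.40) did not pass. In the hippocampus against the hypothalamus, 8 of 10 were higher in the hippocampus, beside 33.7% of all genes, led by Arc with 2.63-fold and Egr4 with 2.39-fold; Fos (log2 -0.41, -0.89 to 0.06) and Npas4 (-0.15, -0.53 to 0.22) did not pass. Over the 3 comparisons, 24 of 30 tests were called, and none in favour of the second region named.

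These tests treated the 3 libraries of an animal as unrelated. With the animal as a block, 9 of 10 genes were called higher in the cortex than in the hypothalamus, beside 37.4% of all genes in that fit, and 9 of 10 higher in the cortex than in the hippocampus, beside 33.3%. Between the hippocampus and the hypothalamus all 10 were called, 8 higher in the hippocampus, beside 36.6% of all genes, and 2 higher in the hypothalamus, beside 38.2%. Fos (log2 0.36, adjusted p = 0.00320) and Dusp1 (0.26, adjusted p = 0.000188) were then higher in the cortex than in the hippocampus, and Fos (-0.36, adjusted p = 0.00275) and Npas4 (-0.20, adjusted p = 0.0217) were lower in the hippocampus than in the hypothalamus. Animal by animal, Egr1, Egr2, Egr4 and Arc were each higher in the cortex than in the hypothalamus in 28 of 28 animals, Fos in 15 of 28. Fos was higher in the hippocampus than in the hypothalamus in 6 of 28 animals and Npas4 also in 6 of 28, against 28 of 28 for Junb, Egr1, Egr4, Arc, Nr4a1 and Dusp1. The summed level of 4 neuronal markers had a median of 5454 CPM in the cortex, 3567 CPM in the hippocampus and 2518 CPM in the hypothalamus, without overlap of the cortex libraries (4520 CPM or more) with the others (3902 CPM or less); its part in the region differences was not tested. In bulk tissue, fewer expressing cells and less RNA per cell cannot be told apart.

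**Figure D2:**
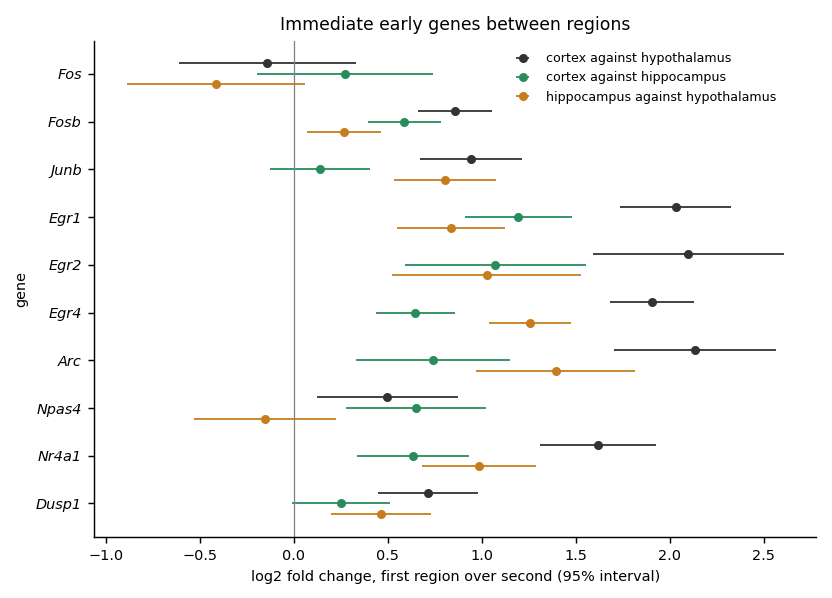
Log2 fold change of each gene between regions with 95% intervals from the quasi-likelihood fit; points right of 0 are higher in the region named first. Arc, Egr2, Egr1 and Egr4 differ most between cortex and hypothalamus, from 1.90 to 2.13, while the Fos intervals all include 0.

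The genes varied more between animals than most genes did. The standard deviation of log2 CPM within the 4 groups of a region had a median of 0.18 to 0.20 over all genes, and all 30 values of the 10 genes in the 3 regions lay above it, from 1.47 to 5.53 times the median. Egr2 in the cortex had the largest, 1.12, which exceeded that of 98.7% of genes, followed by Fos in the hypothalamus at 1.03, Arc in the cortex at 0.99 and Fos in the hippocampus at 0.91. Egr4 in the hippocampus (0.29) and Fosb in the cortex (0.30) were the steadiest. Low-count genes vary more on this scale, and Egr2 was the lowest of the 10.

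Within each region the 10 genes rose and fell together. After centring on the 4 groups, the 45 pairs of genes had a median Pearson's r of 0.67 over 29 animals in the cortex, 0.80 over 28 animals in the hypothalamus and 0.72 over 29 animals in the hippocampus, and 0 of the 135 pairs had a negative r. Over all gene pairs the median r was between -0.0019 and -0.0008, and 2.69% to 4.64% of them exceeded 0.5, as did 118 of the 135 pairs of these genes. The closest pair was Junb and Nr4a1 in the cortex (r = 0.97), followed by the same pair in the hypothalamus (0.93) and by Egr4 with Egr2 and with Egr1 in the cortex (0.93 each). The loosest were Egr1 with Npas4 (0.11) and with Dusp1 (0.16) in the cortex, Egr4 with Dusp1 in the hippocampus (0.29) and Egr4 with Fos in the hypothalamus (0.29). The genes of a pair were measured in the same library, so these r values share library and depth; the mean standardized level of the 10 genes had an r of 0.14, -0.03 and 0.19 with the total count in the cortex, hypothalamus and hippocampus.

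A few animals stood at or near the ends of the range in several regions. Animal 29, a male with a large network, was highest in 20 of the 30 combinations of gene and region. Its Fos level was 53.7 CPM in the cortex, 38.3 CPM in the hippocampus and 50.8 CPM in the hypothalamus, and its Arc level was 371, 203 and 62.4 CPM. Animal 9, a female with a large network, was lowest in 11 combinations, with Fos at 2.66, 3.30 and 4.63 CPM and Arc at 24.6, 28.5 and 17.2 CPM in the same order. Animal 13, a male with a small network, was lowest in 6, with Fos at 3.89, 2.95 and 3.88 CPM. By these counts, the animal most often highest and the one most often lowest had large networks. Animal 13, with a small network, was below animal 9 for Fos in the hippocampus and the hypothalamus.

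Standardized over all animals of a region and averaged over the 10 genes, animal 29 lay 1.82, 1.83 and 1.85 SD above the mean in the cortex, hippocampus and hypothalamus. Animal 9 lay at -2.02, -1.65 and -1.003 and animal 13 at -1.61, -1.60 and -1.17. In the hypothalamus animals 20 (-1.21), 22 (-1.15) and 19 (-1.10) also lay below animal 9. All 10 genes were above the region's mean in all 3 regions in 2 of the 28 animals with every region, animals 6 and 29, and below it in 1, animal 13. Other animals differed between regions. Animal 8, a female with a small network, lay at -0.78 in the cortex, with 0 of 10 genes above the mean, and at 0.80 and 1.09 in the hippocampus and hypothalamus, with 10 of 10 genes above it in both. Animal 23, of the same group, lay at 1.68 in the cortex, 0.21 in the hippocampus and -0.02 in the hypothalamus.

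**Figure D3:**
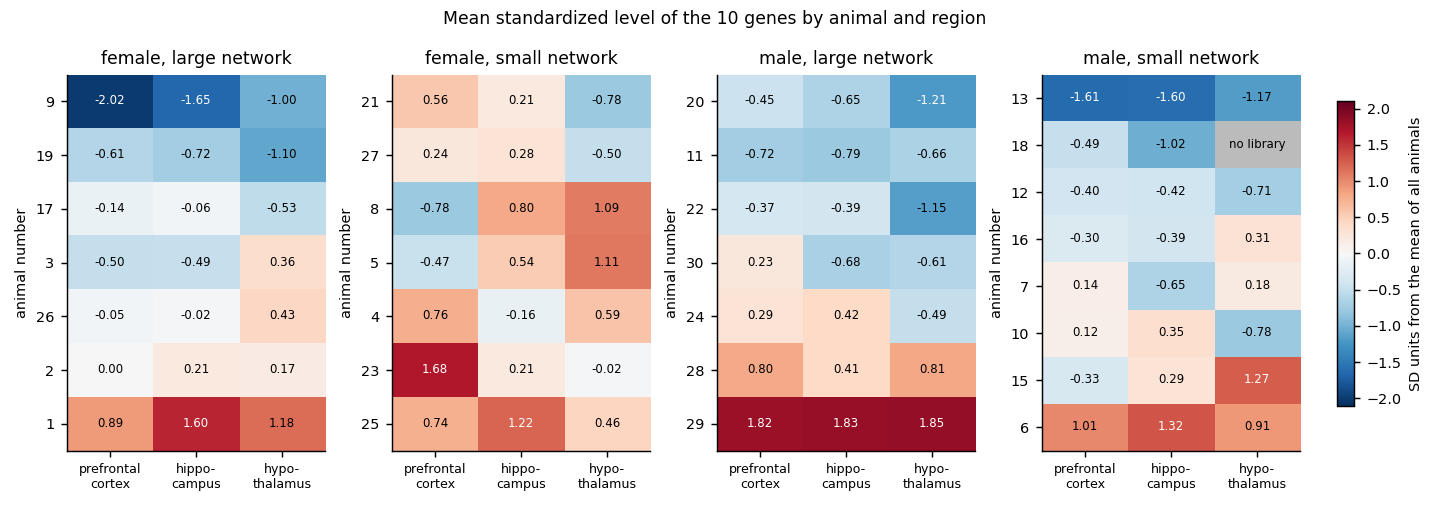
Mean standardized level of the 10 genes in each animal (rows, sorted within each of the 4 groups) and region (columns), in SD units from the mean of all animals of that region; grey is the missing library. Animal 29 is at 1.82 to 1.85 in the 3 regions and animal 9 at -2.02 to -1.003, both with large networks. Animal 13, with a small network, is at -1.615 to -1.165.

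Whether an animal kept its place from region to region was tested gene by gene, with Pearson's r of group-centred log2 CPM over animals and 100000 permutations of animals within groups, adjusted over all genes. Between the cortex and the hippocampus, 10 of 10 genes passed, with r from 0.64 for Egr4 to 0.81 for Arc, beside 26.9% of all genes and a median r of 0.32 over all genes. Between the hippocampus and the hypothalamus, 9 of 10 passed, beside 27.7% of all genes and a median of 0.33. Fos reached 0.95 (Spearman's rho 0.93; 0.93 without the 2 animals farthest from the median), Npas4 0.92 (rho 0.93; 0.89) and Dusp1 0.92 (rho 0.90; 0.91), above 99.4%, 99.1% and 98.99% of all genes, and the permutation p of 1e-05 is the smallest that this number of permutations can give. Egr4 had an r of -0.05 there (permutation p = 0.775). Between the cortex and the hypothalamus, 5 of 10 passed, beside 25.3% of all genes and a median of 0.33: Npas4 (0.73), Dusp1 and Fos (0.65 each), Arc (0.62) and Nr4a1 (0.50, adjusted permutation p = 0.0438). Egr4 had an r of 0.03, Egr1 of 0.28, Egr2 of 0.39, Junb of 0.42 and Fosb of 0.45.

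Of the 30 tests, 24 passed with Pearson's r and 21 with Spearman's rho. In every pair of regions, 5 genes passed (Fos, Arc, Npas4, Nr4a1 and Dusp1). The share of all genes passing by rho, or in every pair, is not given here, so these counts cannot be set against it. Without the 2 animals farthest from the median, the r of these 5 genes between the cortex and the hypothalamus was 0.50, 0.59, 0.60, 0.71 and 0.56. Without animal 29, 4 of 10 genes passed there, beside 24.5% of all genes. Animals 9, 13 and 29 were chosen after their levels were seen, as the extremes of these genes, and leaving out extremes lowers r in part by construction. Without them, 1 of 10 passed between the cortex and the hypothalamus (Npas4, r = 0.60; Fos 0.32), beside 20.8% of all genes. Between the hippocampus and the hypothalamus 5 passed, beside 23.9% of all genes, where Fos, Npas4 and Dusp1 stayed at 0.91, 0.89 and 0.90, and between the cortex and the hippocampus 8 passed, beside 22.6%. Within the groups, r between the cortex and the hypothalamus was negative for 9 of 10 genes in the 7 females with small networks (Fos -0.61, Junb -0.40) and for 1 of 10, Egr4, in the 7 females with large networks, where Fos had an r of 0.90; the difference between groups was not tested. Between the hippocampus and the hypothalamus, r was 0.74 or more for Fos, 0.87 or more for Npas4 and 0.89 or more for Dusp1 in each of the 4 groups. Over the groups, Egr1 ranged there from -0.53 to 0.83, Egr4 from -0.41 to 0.47 and Arc from 0.03 to 0.91. Between the cortex and the hippocampus, r lay between -0.45 (Junb) and 0.51 (Egr1) in the females with small networks, where Fos had -0.06. It lay between 0.84 and 0.97 in the females with large networks. In males it lay between 0.24 and 0.99 with large and between 0.63 and 0.94 with small networks. These differences were not tested.

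**Figure D4:**
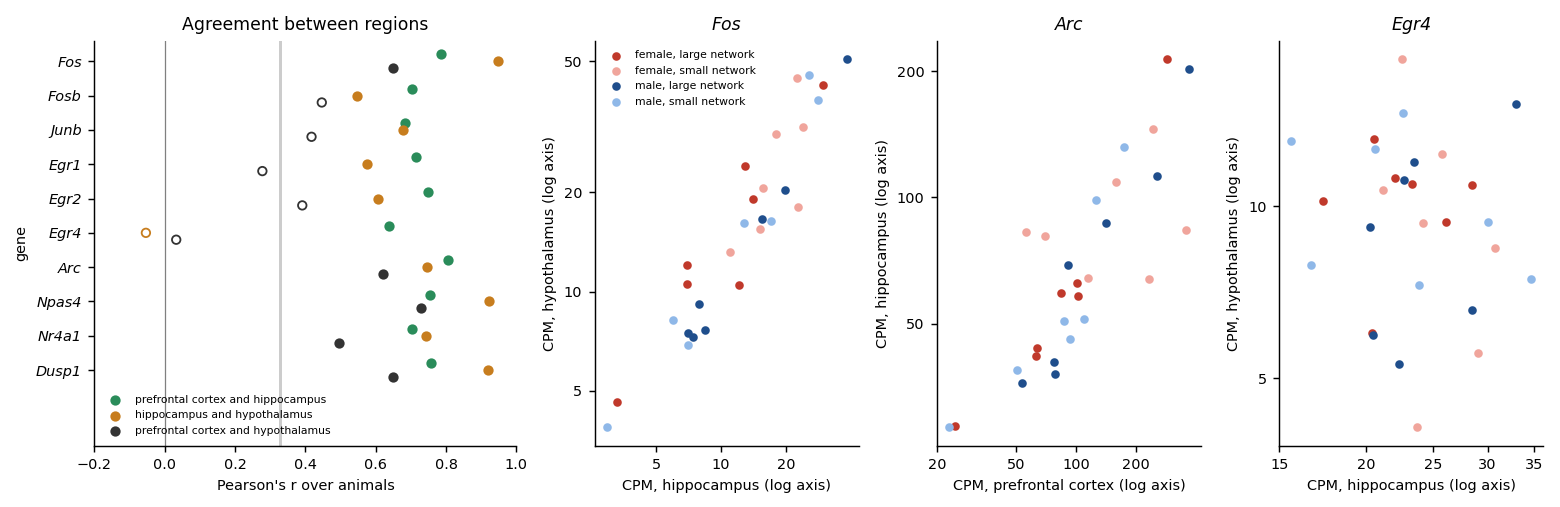
Left, Pearson's r of each gene between regions over 28 or 29 animals, filled where the adjusted permutation p is under 0.05, with a grey line at the median of all genes. Right, CPM of Fos, Arc and Egr4 in 2 regions on log axes, 1 point per animal; Fos lies close to a line (r = 0.95) and Egr4 does not (r = -0.05).

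Social network size was compared within each sex and region, small against large networks. In females, the cortex values of all 10 genes were higher with small networks, with a median log2 fold change of 0.49 (0.297 without animal 23 to 0.615 without animal 5), but 0 of 10 passed the quasi-likelihood test, in which 0.0113% of all genes did. Egr2 alone had an unadjusted p under 0.05, beside 9.59% of all genes with an unadjusted p under 0.05. Its 7 females with large networks ranged from 0.765 to 8.14 CPM with a median of 5.04 CPM, and its 7 females with small networks from 3.36 to 25.7 CPM with a median of 8.46 CPM. The groups overlapped, although 4 of 7 females with small networks exceeded every female with a large one. The log2 fold change was 1.22 (SE 0.50, 95% interval 0.15 to 2.29), the adjusted p of edgeR 0.496, and a two-sided test by exact permutation of 7 against 7 animals gave p = 0.0915. The remaining 9 genes had log2 fold changes of 0.07 or more, among them Arc at 0.76 (SE 0.46), Fos at 0.63 (SE 0.38) and Nr4a1 at 0.57 (SE 0.33).

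The count with an unadjusted p under 0.05 depended on single animals, rising from 1 to 8 without animal 1, a female with a large network and high levels in each region, beside 7.97% of all genes in that refit. It was 0 without animal 3, 21 or 23, beside 8.26%, 9.2% and 6.97% of all genes. In the female hippocampus, 10 of 10 genes were higher with small networks (median log2 0.29) and 0 passed, adjusted or not, beside 0% and 12.2% of all genes; without animal 1, 7 had an unadjusted p under 0.05, beside 10.3% of all genes. In the female hypothalamus, 9 of 10 were higher (median 0.22) and 0 passed in either way, beside 0.00552% and 7.39% of all genes, with 3 at an unadjusted p under 0.05 without animal 1, beside 6.61% of all genes.

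In males, the cortex values of all 10 genes were lower with small networks, with a median log2 fold change of -0.33, from -0.76 for Arc (SE 0.42) and -0.66 for Fos (SE 0.37) to -0.03 for Egr1. None passed, adjusted (0% of all genes) or unadjusted (2.52%). Arc ranged from 53.2 to 371 CPM in males with large networks and from 22.9 to 174 CPM in those with small ones, with medians of 90.9 and 89.8 CPM. Without animal 29 the median log2 fold change was -0.10 and 3 of the 10 values were positive. In the male hippocampus, 9 of 10 values were negative (median -0.12) and none passed, beside 0% and 3.88% of all genes; without animal 29 the median was 0.06 and 7 values were positive. In the male hypothalamus, 7 of 10 were positive (median 0.14) and none passed, beside 0% and 2.9% of all genes; without animal 29, 10 were positive and 2 had an unadjusted p under 0.05, beside 3.29% of all genes. In the male cortex that count was 4 without animal 11, a male with a large network, beside 2.99% of all genes.

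Summed markers of other cell types overlapped between the groups in the same cortex libraries, with medians that lay apart for several. In females, summed neuronal markers had a median of 5862 CPM (5294 to 6016) with large and 5359 CPM (4520 to 5996) with small networks, and astrocyte markers 709 CPM (636 to 761) and 795 CPM (691 to 824). In males, blood markers had a median of 220 CPM (189 to 662) with large and 592 CPM (189 to 689) with small networks, and choroid plexus markers 5.25 CPM (2.09 to 427) and 2.76 CPM (1.97 to 5.79). These sums were not tested. None of these markers was at 0 throughout, and their part in the values of the 10 genes was not tested.

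Over the 6 comparisons, 0 of 60 tests passed with edgeR, beside 0% to 0.0113% of all genes per comparison. An unadjusted p under 0.05 was found in 1, beside 2.52% to 12.2% of all genes. In 0 did the groups not overlap, and overlap was not counted over all genes. DESeq2's Wald test also called 0 of the 60, with its counts over all genes given below. The 10 genes are correlated, so that their shared direction is not 10 separate observations.

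**Figure D5:**
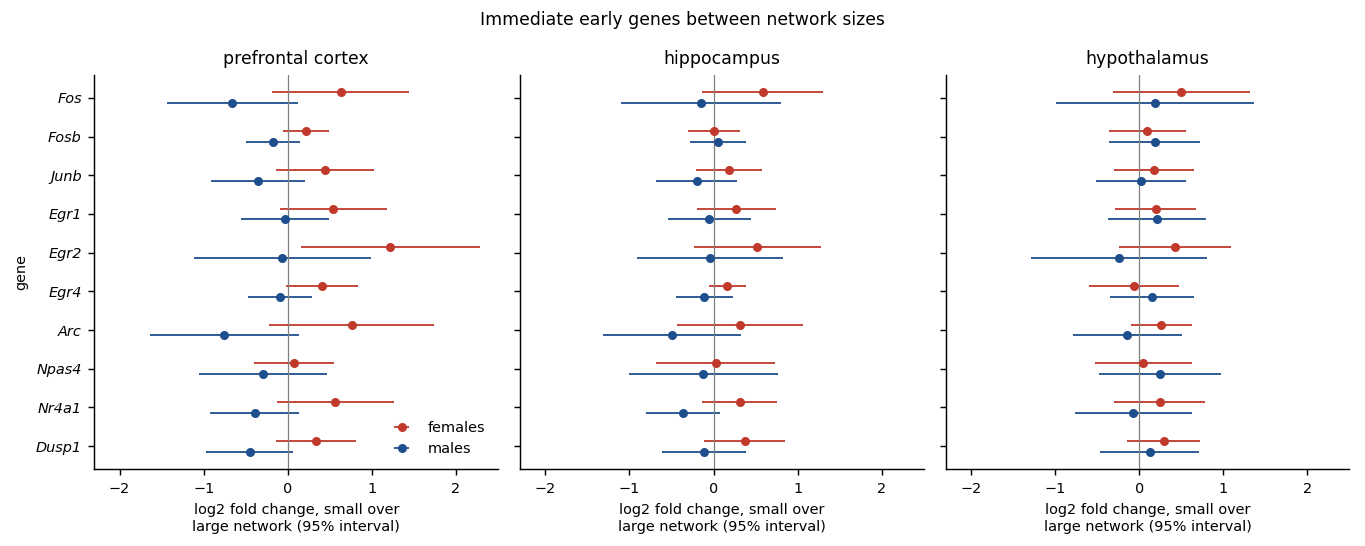
Log2 fold change of each gene, small over large networks, in females (red) and males (blue) of each region, with 95% intervals. In the cortex all 10 values lie above 0 in females and below 0 in males, and the interval of Egr2 in females, 0.15 to 2.29, is the one that excludes 0.

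The difference between the sexes in the effect of network size was tested as an interaction. In the cortex it was positive for all 10 genes, with a median of 0.80 on the log2 scale. None passed after adjustment (0% of all genes), and 4 of 10 had an unadjusted p under 0.05, beside 4.17% of all genes: Arc (1.52, SE 0.67, 95% interval 0.16 to 2.89), Fos (1.29, SE 0.57, 0.13 to 2.46), Dusp1 (0.79, SE 0.36, 0.06 to 1.52) and Nr4a1 (0.97, SE 0.44, 0.07 to 1.87), each with an edgeR adjusted p of 0.997. Fos had a median of 15.6 CPM in the 7 females with large networks and 23.2 CPM in the 7 with small ones, against 17.96 CPM in the 7 males with large and 12.3 CPM in the 8 with small networks, and all 4 groups overlapped. Without animal 29, 0 of the 10 genes had an unadjusted p under 0.05, with Arc at 1.12 and Fos at 0.89, beside 4.31% of all genes, and without animal 9 there were 2, beside 4.01%. In the hippocampus, Nr4a1 alone had an unadjusted p under 0.05 (0.68, SE 0.32, 95% interval 0.03 to 1.33, adjusted p = 0.662 by edgeR), beside 7.37% of all genes unadjusted and 0% adjusted, and 0 of 10 did without animal 9 or animal 29, beside 6.81% and 7.93% of all genes. In the hypothalamus no gene had, beside 6.14% unadjusted and 0% adjusted. Between the sexes themselves, 0 of 30 tests had an unadjusted p under 0.05 (lowest 0.210), with log2 fold changes from -0.06 to 0.23. The share of all genes called was 0.0976%, 0.117% and 0.102% in the cortex, hypothalamus and hippocampus after adjustment, and 4.98%, 6.79% and 5.99% without it.

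Other genes of the same programme were followed in lists. Among 40 other rapid immediate early genes, 0 passed for network size in any sex or region, beside 0% to 0.0113% of all genes per comparison. In the female cortex, 29 of the 40 were higher with small networks (median log2 0.11; over all genes 49.9% were higher), and the smallest p values belonged to Sik1, a salt-inducible kinase that restrains CREB coactivators (log2 0.72, SE 0.23, adjusted p = 0.449), and Nr4a2, an orphan nuclear receptor of the Nr4a1 family (0.55, SE 0.23, adjusted p = 0.496). In the male cortex, 10 of 40 were higher (median -0.08, against 0.0015 over all genes). The smallest p values there belonged to Amigo3 (0.25, SE 0.12) and Ier2 (-0.46, SE 0.24), each with an adjusted p of 1.0. Many of the 40 covary with the 10 genes, so that their directions are not separate observations. A refit of this list without animal 29 is not given here. Between the cortex and the hypothalamus, 24 of the 40 were higher in the cortex, beside 35.3% of all genes, and 7 higher in the hypothalamus, beside 39.9%. The test of agreement between regions was passed by 32 of 40 for the cortex and the hippocampus (median r 0.63), where 26.9% of all genes passed. For the hippocampus and the hypothalamus 23 of 40 passed (0.57), beside 27.7%, and for the cortex and the hypothalamus 21 of 40 (0.52), beside 25.3%.

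The 14 later activity-induced genes, which include Bdnf and Nptx2 and follow the first wave, passed that test in 9, 3 and 6 of 14 cases in that order of region pairs, the second of them below the share over all genes. The 13 upstream kinases and transcription factors, among them Creb1 and Srf, passed in 4, 4 and 1 of 13, near or below the shares of 26.9%, 27.7% and 25.3% over all genes. None of either list passed for network size, beside 0% to 0.0113% of all genes per comparison. Of the 7 heat shock genes, 6, 7 and 7 passed, with median r of 0.88, 0.90 and 0.80, and of the 7 glucocorticoid targets, which include Fkbp5 and Sgk1, 6, 7 and 6, with medians of 0.83, 0.89 and 0.77. In neither list did a gene pass for network size, beside the same shares of all genes. At such shares, a count of 0 is not particular to these lists. Per1 and Sgk1 are also among the 40 rapid genes, and Cdkn1a is among the later ones.

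Of all 17814 genes measured in the 3 regions, the one most like the 10 was 1700016P03Rik, whose level correlated with their mean standardized level at r = 0.96 in the cortex, 0.93 in the hippocampus and 0.88 in the hypothalamus, 0.92 on average, over 28 or 29 animals. This non-coding transcript (chr11:75172560-75177633, plus strand, GENCODE vM21) contains the genes of 2 microRNAs on its strand, Mir212 (chr11:75173388-75173478) and Mir132 (chr11:75173682-75173747). The next 7 genes had a mean r between 0.70 and 0.74: Arl4d, Sik1, Sertad1, Dnd1, Ier2, Ier5l and Tnfrsf25. Of the 40 genes ranked highest, 10 were in the list of 40 other rapid immediate early genes, whose median of the mean r was 0.49, against -0.0022 over all genes. Likeness here describes covariation in the same libraries and says nothing of shared control.

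Across animals, most cell type markers had a weak relation with the 10 genes. Over the animals of a region, the r of their mean level with the summed level of 4 markers each was between -0.12 and 0.20 for neurons, -0.20 and -0.03 for astrocytes, -0.24 and 0.10 for oligodendrocytes, 0.03 and 0.12 for microglia, -0.36 and -0.04 for endothelial cells, -0.31 and 0.31 for choroid plexus and -0.17 and 0.10 for blood, and 0 markers of these lists were at 0 in all libraries of a region. Choroid plexus markers summed to 1.39 to 427 CPM in the cortex libraries and blood markers to 175 to 1307 CPM. Markers of the striatum reached an r of 0.40 in the hypothalamus and markers of the cortex 0.38 in the hippocampus, while markers of the dentate gyrus, hypothalamus and thalamus stayed between -0.26 and 0.22. The summed level of the 7 glucocorticoid targets had an r of 0.62 in the cortex, 0.25 in the hippocampus and 0.33 in the hypothalamus. The single genes differed in the cortex. Per1, which is also one of the rapid genes, had an r of 0.70, Errfi1 of 0.68 and Tsc22d3 of 0.48. Sgk1 (0.14), Fkbp5 (0.12), Cdkn1a (0.11) and Zbtb16 (0.06) had a weak relation there. The summed level of the 7 heat shock genes had an r of -0.35 in the cortex, 0.14 in the hippocampus and -0.11 in the hypothalamus. Abundant genes weigh most in such sums. Singly in the cortex, Dnajb1 (0.63), Hspa1b (0.37), Hspb1 (0.34) and Hspa1a (0.23) were positive. Hsp90aa1 (-0.49), Hspa8 (-0.29) and Hsph1 (-0.17) were negative there. In the hippocampus the 7 genes lay between 0.06 and 0.50, and in the hypothalamus between -0.18 and 0.23. The part of any of these in the variation between animals was not tested.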

How the data were processed

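Libraries of total RNA from 86 tissue punches were analysed. The authors made libraries with a NEBNext Ultra kit, mapped reads to mm10 (GRCm38) with STAR, counted them with HTSeq, and deposited raw counts per gene; the annotation release and strand setting are not given in the sources used here. Region, sex and gregariousness came from the sample records, and the animal number, which marks the 3 regions of the same animal, from the sample titles. GENCODE vM21 gave symbols and positions for 34490 of 35275 genes.

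CPM values used TMM factors over all 86 libraries. Tests were edgeR 4.0.16 quasi-likelihood fits in R 4.3.3 after filterByExpr (minimum count 10, minimum total 15, proportion 0.7), with Benjamini-Hochberg adjustment at 0.05: 2 groups per sex and region for network size, 4 groups of a region for sex and the interaction, and every group of region, sex and network size in one fit for regions. For regions the block on animal number was the alternative. For agreement between regions, log2 CPM with a prior count of 2 was centred on the 4 groups and animals were permuted 100000 times within groups; 2 animals were also left out. The pairing by animal rests on the labels, and over all genes the median r between regions was 0.32 to 0.33. Single genes were also tested by exact permutation; with 7 animals in both groups the smallest possible p is 0.000583. DESeq2 1.42.0 gave alternative size factors and Wald tests. Figures were drawn with matplotlib 3.10.9.

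The members and gene lists were chosen with earlier results of these data known. All 10 members are described for levels, regions and agreement; for network size, sex and their interaction those with an unadjusted p under 0.05 are named, and for the other lists the rule was every gene that passed or, with none, the 2 with the smallest p, of which those of the rapid genes in the cortex are printed; other values named were chosen after they were seen. The 8 genes most like the members were ranked by their mean r over the regions. Replicates are separate animals. Low counts bear most on Egr2, whose lowest count was 13.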

Additional observations from a re-analysis of the deposited data

Results flagged for a closer look

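Of 120 groups of 7 or 8 animals (10 genes, 3 regions and 4 groups), 5 held an animal set apart from the others of its group by Dixon's test at the 95% level, which chance alone does in about 1 in 20 groups. Fos in the cortex was 2.66 CPM in animal 9, a female with a large network, and 10.1 CPM in the next lowest female of the group. Fosb in the hippocampus was 13.2 CPM in animal 29, a male with a large network, and 9.18 CPM in the next highest. Npas4 in the same library was 33.3 CPM, with the next highest at 11.6 CPM. Arc in the hippocampus was 214 CPM in animal 1, a female with a large network, and 62.6 CPM in the next highest. Egr4 in the hypothalamus was 6.004 CPM in animal 19, a female with a large network, and 9.39 CPM in the next lowest. The same library was the lowest of its region for Fosb (4.57 CPM) and Nr4a1 (12.6 CPM). The paper reports the lowest RNA integrity of its samples for this one. It kept the sample because neither quality controls nor differential expression marked it as an outlier. The part of RNA integrity in these values was not tested.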

How the results depend on the processing

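In 158 refits for network size, sex and their interaction, 0 members passed, under other size factors, looser or stricter count filters, robust dispersions, a joint fit of the 4 groups, the DESeq2 Wald test or with an animal left out, where each was run. Over all genes, the Wald test called 74, 43 and 97 genes for network size in the cortex, hypothalamus and hippocampus of females, against 2, 1 and 0 by edgeR, 30 against 0 for the interaction in the cortex, and 28, 40 and 30 against 18, 22 and 19 for sex. In males it called 2 and 1 in the cortex and hypothalamus against 0, and 1 against 0 for the interaction in the hippocampus. With a minimum of 1 count, edgeR called 6, 3 and 1 in females, with robust dispersions 5 in the cortex, and in the joint fit 4 in the cortex, 0 in the hypothalamus and 1 in the male cortex. Leaving out each animal in turn moved the median log2 fold change of the members from -0.0404 (without animal 15; -0.0242 without animal 6) to 0.318 in the male hypothalamus and from -0.325 to 0.0615 (without animal 29) in the male hippocampus, and that of Egr2 in the female cortex from 0.81 (without animal 23) to 1.45 (without animal 1). For regions, the replicate block on animal number called 9, 9 and 10 members against 9, 7 and 8, and changed no other call. The shares of all genes in both fits are given with the region results above. The other alternatives called the same numbers as the unblocked fit, and their shares of all genes are not given here. For agreement, counts are in the order cortex with hypothalamus, cortex with hippocampus and hippocampus with hypothalamus. No centring, a prior count of 10 and DESeq2 size factors kept the counts at 5, 10 and 9. The shares of all genes under these settings are not given here. Added after seeing the data, leaving out animal 29 gave 4, 10 and 8, beside 24.5%, 25.3% and 26.8% of all genes. Leaving out animals 9, 13 and 29, also added then, gave 1, 8 and 5, beside 20.8%, 22.6% and 23.9%. The r of Egr4 between the cortex and the hypothalamus was -0.0264 without centring, -0.0423 without animal 29 and -0.106 without animals 9, 13 and 29. The median of the interaction in the hypothalamus, 0.16, became -0.152 without animal 29. The cause of these changes was not tested.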
